A study of Homo sapiens with 5 samples.

Results

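The genes described here are those of MHC antigen presentation: the class I and class II chains, the proteins that cut, transport and load their peptides, and the transcription factors that switch them on. They were chosen by name as a list of 32 genes and looked up by Ensembl identifier in a table of 27328 genes. A row was found for 31 of them. Counts of *HLA-G* were not analysed here. The cells were TF-1, a human AML cell line that grows with GM-CSF. The study asked which genes differ in expression when *MTSS1*, which encodes a regulator of the actin cytoskeleton, is lost, and RNA was counted in 2 control and 3 *MTSS1* knockout pools. Each pool combined 4 single-cell clones, and all clones, controls included, had been transduced with the lentiviral vector pLenti-Cas9-GFP carrying *Cas9* and an sgRNA. Control clones carried sgCtrl against the *Renilla luciferase* gene, and the knockout pools carried sgMTSS1_1, sgMTSS1_2, or sgMTSS1_3, a different sgRNA in each pool. Neither the third sgCtrl pool nor the sgMTSS1_4 pool, both set aside by the authors after an outlier test, was analysed here.

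MHC class I molecules consist of a heavy chain and beta-2-microglobulin, and show peptides from proteins made inside the cell to CD8+ T cells. The peptides are cut by the proteasome, pumped into the endoplasmic reticulum by the TAP transporter, trimmed there, and loaded with the help of chaperones. Class II molecules consist of an alpha and a beta chain, are held by the invariant chain CD74 until they reach endosomes, and show peptides from ingested proteins to CD4+ T cells; they are typical of B cells, monocytes and dendritic cells and also occur on hematopoietic progenitors. Promoters of both classes share a module of X and Y boxes. The RFX complex (RFX5, RFXANK, RFXAP), CREB-family proteins and NF-Y bind this module, and the coactivators CIITA, for class II, and NLRC5, for class I, are recruited to it.

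Libraries were read from the 3' ends of transcripts, so that the number of reads follows the number of mRNA molecules. Levels are given as CPM, i.e., counts scaled to a common library total with edgeR's TMM factors, and are compared between pools, gene by gene. Total counts were 2849979 and 3408827 in the control pools and between 5442639 and 8854899 in the knockout pools, so each knockout library was deeper than both control libraries, and 3 counts corresponded to between 0.339 and 1.05 CPM before TMM scaling. Differences were tested across 14391 genes with edgeR's quasi-likelihood test, and a gene was called when its Benjamini-Hochberg adjusted p-value was under 0.05 and its log2-fold change above 1 or below −1. Each pool was grown and extracted on its own, and p-values measure the spread between these pools. Since an outlying pool of each group had been set aside, this spread may be smaller than that between all pools made. In the knockout group it also includes differences between sgRNAs. The mRNA of *MTSS1* itself overlapped between the groups (log2-fold change −0.58, standard error 0.47, edgeR adjusted p = 0.494) and could not be used to check the labels. The authors had verified the knockout in the pooled clones at the protein level, by immunoblot. All 12 genes of a TF-1 marker list had at least 10 counts in every library. Markers of other cell types that carry class II molecules were low: the summed level of 5 measured B cell genes was 32.6 to 33.5 CPM in control and 20.8 to 29.4 CPM in knockout pools, and that of 6 measured monocyte, macrophage or dendritic cell genes was 3.26 to 8.07 and 5.75 to 7.09 CPM. Of the 5 B cell genes, *PAX5*, which defines B cells, was the only gene with at most 3 counts in every library. *CD22*, at 8.51 to 18.3 CPM over the pools, and *CD79B*, at 5.03 to 11.5 CPM, had at least 10 counts in every library. The part of these other cell types in the class II levels was not tested. T or NK cell genes (5 measured) summed to 3.10 to 4.74 CPM in control and 1.97 to 9.34 CPM in knockout pools, and 4 stroma genes to 0.621 to 1.48 and 0.180 to 1.21 CPM.

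Of the 31 genes with a row, 28 had enough counts to be tested. Both genes that were called were higher in the knockout: *RFXANK*, a subunit of the RFX complex, and *TAP2*, a subunit of the peptide transporter. No gene was called lower. Of all tested genes 5.18% were called, 4.17% higher and 1.01% lower, so 2 of 28 is near that background. Before adjustment, 8 of the 28 genes had a p-value under 0.05, against 23.3% of all tested genes. In 5 genes every knockout pool lay above both control pools (background 22.2%), in 5 every knockout pool lay below (background 19.2%), and in 18 the groups overlapped. The median log2-fold change was 0.13, with a range from −1.01 to 3.05, against a median of −0.03 over all tested genes.

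**Figure D1:**
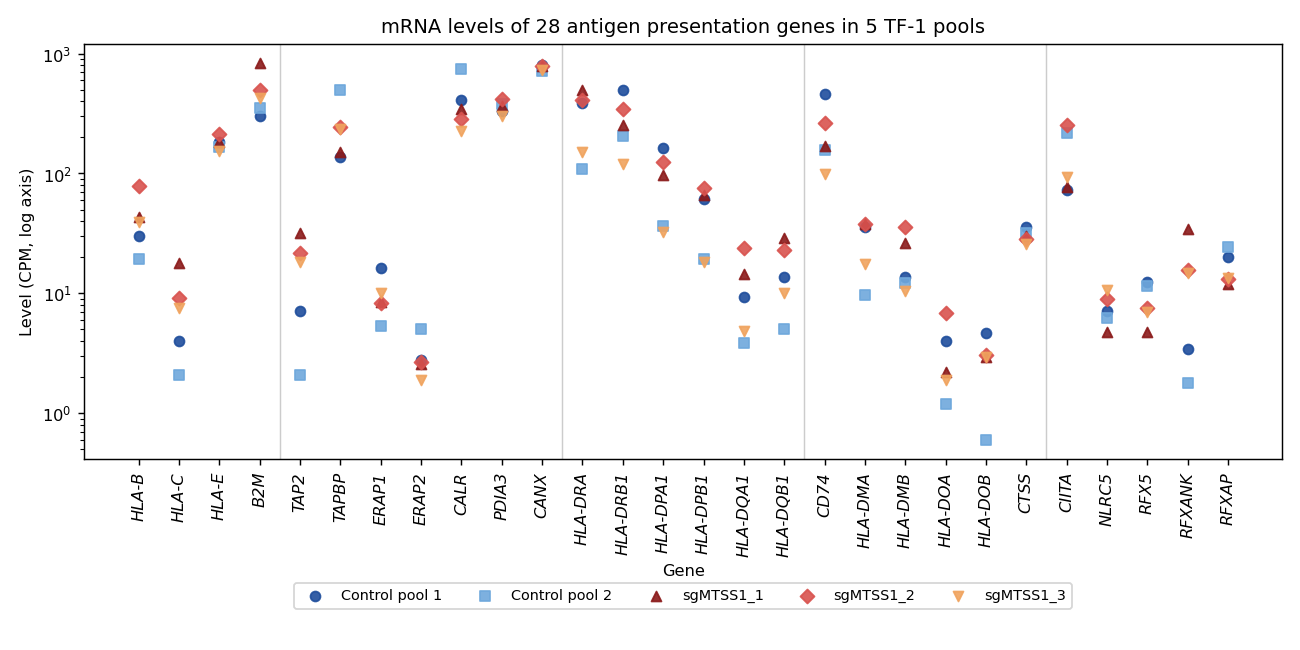
Levels of the 28 tested genes in the 5 pools, in CPM on a log axis, grouped by role from left to right (class I chains, class I loading, class II chains, class II chaperones and cathepsin S, transcription factors). Levels of *RFXANK* and *TAP2* in the 3 knockout pools lie above those in both control pools, whereas control pool 2 and the sgMTSS1_3 pool lie low in most class II genes.

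Among the class I chains, *HLA-B*, *HLA-C* and *B2M* were higher throughout the knockout pools, with no overlap between groups, but none of them was called. *HLA-B* (ENSG00000234745, minus strand, chr6:31353872-31367067 of GRCh38), which encodes a classical heavy chain, was at 30.1 and 19.2 CPM in control pools 1 and 2, and at 43.0 CPM in sgMTSS1_1, 77.9 in sgMTSS1_2 and 39.1 in sgMTSS1_3. Only the sgMTSS1_2 pool stood well clear of the controls. The means were 24.7 ± 7.67 CPM (SD, n = 2) and 53.3 ± 21.4 CPM (SD, n = 3), a log2-fold change of 1.11 (standard error 0.40, edgeR adjusted p = 0.138). *HLA-C* (ENSG00000204525, minus strand, chr6:31268749-31272130), another classical heavy chain, had 13 and 7 counts in control and 138, 51 and 44 counts in knockout pools, or 4.03 and 2.07 against 17.8, 9.16 and 7.61 CPM. The sgMTSS1_1 pool was highest, and the control values rest on few reads. Its log2-fold change was 1.92 (standard error 0.56, edgeR adjusted p = 0.0781). With DESeq2, the tool used by the authors, which called 9.43% of all tested genes, *HLA-C* was called too (log2-fold change 1.92, adjusted p = 0.0282), making 3 genes of the list. The adjusted p-value of *HLA-C* ranged from 0.0172 to 0.211 over the alternatives. Bulk counts do not tell fewer expressing cells from less RNA per cell.

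*B2M* (ENSG00000166710, plus strand, chr15:44711358-44718851) encodes beta-2-microglobulin, the light chain common to all class I molecules, and was also the reference gene in the study's qRT-PCR. It was at 301 and 350 CPM in the control pools and at 837 CPM in sgMTSS1_1, 498 in sgMTSS1_2 and 425 in sgMTSS1_3. The groups did not overlap, and sgMTSS1_1 stood apart from the other knockout pools. The log2-fold change was 0.85 (standard error 0.38, edgeR adjusted p = 0.212), and 0.49 without the sgMTSS1_1 pool. *HLA-E*, a non-classical heavy chain that NK cells recognise, was at 182 and 167 CPM in control and at 182, 215 and 155 CPM in knockout pools, and its log2-fold change was 0.08 (standard error 0.29). *HLA-F*, another non-classical heavy chain, had 1, 3, 7, 1 and 0 counts in the 5 libraries and was not tested. HLA genes differ between people in sequence, and the authors kept only reads that mapped to a single place in GRCh38, so counts of *HLA-B* and *HLA-C* also depend on how well the alleles of TF-1 match that genome.

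Windows upstream of these genes are shown because the X and Y boxes in them are where the RFX complex and its partners bind. The sequences are RefSeq's for build GRCh38.p14, 200 bases ending at the base before the annotated start, 5' to 3' on the strand of the gene. They are the reference sequence, and that of TF-1 was not determined. Capitals mark the letters searched for on both strands: ATTGG, the core of the Y box; TGACG, the core of the X2 box; AANNGAAA, letters of an interferon-stimulated response element; and GGGNNTTCC, letters of a kappaB site. Matches may overlap. The windows lie on the minus strand at chr6:31357180-31357379 for *HLA-B* and chr6:31272093-31272292 for *HLA-C*, and on the plus strand at chr15:44711317-44711516 for *B2M*.
HLA-B: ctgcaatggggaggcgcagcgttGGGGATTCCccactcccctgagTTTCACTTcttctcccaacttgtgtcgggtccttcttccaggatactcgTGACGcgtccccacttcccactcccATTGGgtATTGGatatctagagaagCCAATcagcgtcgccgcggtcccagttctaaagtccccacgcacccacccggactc
HLA-C: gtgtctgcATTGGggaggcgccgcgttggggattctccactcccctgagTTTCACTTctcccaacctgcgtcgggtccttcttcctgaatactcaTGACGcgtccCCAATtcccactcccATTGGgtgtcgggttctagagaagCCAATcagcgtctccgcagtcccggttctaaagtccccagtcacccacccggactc
B2M: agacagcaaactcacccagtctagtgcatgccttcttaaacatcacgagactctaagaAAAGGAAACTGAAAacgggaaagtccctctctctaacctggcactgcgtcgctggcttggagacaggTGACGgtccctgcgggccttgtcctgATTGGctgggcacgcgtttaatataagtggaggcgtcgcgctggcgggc
The window of *HLA-B* holds all 4 kinds of letters, with the X2 core starting at position −106 from the start and Y cores at −81, −74 and −56. In *HLA-C* the X2 core starts at −105 and Y cores at −192, −95, −80 and −56, and in *B2M* the X2 core starts at −75 and the Y core at −49. Over windows of 300 bases in 35116 promoters of the RefSeq table (250 before and 50 after the start), the Y core occurred in 34.6%, the X2 core in 24.6%, the interferon letters in 22.8% and the kappaB letters in 6.58%. A gene can have several windows, and the 39 windows of 26 genes of the list held them in 23, 15, 17 and 6 cases, respectively. *HLA-E*, *HLA-DRA*, *PDIA3*, *CTSS*, *CIITA* and *NLRC5* had no entry. A match is a description of the letters and not evidence that a factor binds.

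In class I peptide transport, trimming and loading, *TAP2* rose and none of the other 6 tested genes was called. *TAP2* (ENSG00000204267, minus strand, chr6:32821833-32838739) had 23 and 7 counts in control pools 1 and 2 and 246 in sgMTSS1_1, 121 in sgMTSS1_2 and 105 in sgMTSS1_3, corresponding to 7.14 and 2.07 against 31.7, 21.7 and 18.2 CPM. Every knockout pool was above both controls, and the controls differed from each other 3.44-fold. The means were 4.60 ± 3.58 CPM (SD, n = 2) and 23.9 ± 7.03 CPM (SD, n = 3), a log2-fold change of 2.38 (standard error 0.53, edgeR adjusted p = 0.0364). The call was lost, with the direction kept, when control pool 2 (log2-fold change 1.77, edgeR adjusted p = 0.0672), sgMTSS1_1 (2.105, 0.125), sgMTSS1_2 (2.50, 0.0691) or sgMTSS1_3 (2.59, 0.0649) was left out. Over all alternatives its adjusted p-value ranged from 0.000576 to 0.125. The partner subunit *TAP1* had 3, 3, 0, 1 and 4 counts and was not tested. All of the last 300 exonic bases of *TAP1* are also covered by *PSMB8-AS1* on the opposite strand. The part of this overlap in its counts was not tested, and the use of strand is not given in the sources used here.

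The *TAP2* window, shown because *TAP2* is the called gene of the class I pathway, lies on the minus strand at chr6:32838740-32838939.
TAP2: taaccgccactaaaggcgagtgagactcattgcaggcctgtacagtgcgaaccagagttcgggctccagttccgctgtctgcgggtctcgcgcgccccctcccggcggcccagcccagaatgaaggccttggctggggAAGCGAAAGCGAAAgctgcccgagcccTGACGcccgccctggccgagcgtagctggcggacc
It holds the interferon letters in a pair of overlapping matches starting at −62 and −56 and the X2 core at −35, and no Y core.

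The chaperone *CALR* (calreticulin), which holds heavy chains during loading, was at 408 and 739 CPM in control and at 346, 285 and 226 CPM in knockout pools. Each knockout pool was below both controls, by little for sgMTSS1_1. The log2-fold change was −1.01 (standard error 0.36, edgeR adjusted p = 0.130). With control pool 1 left out *CALR* passed both thresholds (−1.36, edgeR adjusted p = 0.0358), and so did *TAPBP* (−1.24, edgeR adjusted p = 0.0496), whereas *TAPBP* turned to 0.65 without control pool 2. Over the alternatives, the adjusted p-value ranged from 0.0358 to 0.429 for *CALR* and from 0.0496 to 0.749 for *TAPBP*. *TAPBP* encodes tapasin, which bridges class I molecules to the transporter, and its controls were far apart, at 136 and 498 CPM, with 152, 243 and 233 CPM in the knockout pools. Other chaperones differed little between pools. *CANX* (calnexin) was at 802 and 714 CPM in control and at 792, 791 and 735 CPM in knockout pools, and *PDIA3*, a disulfide isomerase of the loading complex, at 334 and 382 against 368, 422 and 300 CPM. Their log2-fold changes were 0.03 (standard error 0.31) and 0.02 (standard error 0.31), and both turned negative, to −0.12 and −0.11, when libraries were scaled by their totals alone, which moved the median of all tested genes to −0.17. The peptide-trimming enzymes of the endoplasmic reticulum were low: *ERAP1* was at 16.1 and 5.33 against 8.51, 8.26 and 10.03 CPM (log2-fold change −0.26), and 0.75 on the log2 scale without control pool 1. *ERAP2* was at 2.79 and 5.03 against 2.58, 2.69 and 1.90 CPM (−0.71, edgeR adjusted p = 0.455). Exons on the opposite strand cover 300, 198, 248 and 200 of the last 300 exonic bases of *TAPBP*, *CALR*, *PDIA3* and *ERAP1*.

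**Figure D2:**
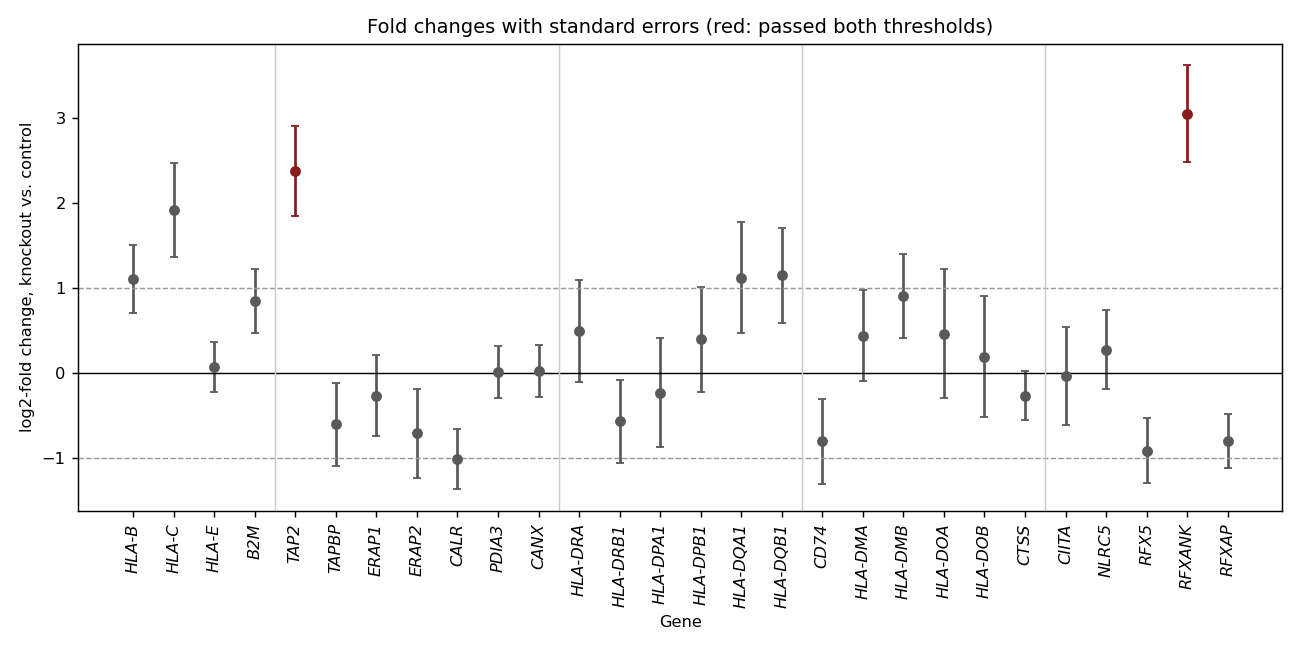
Log2-fold changes of the 28 tested genes between knockout and control pools, with standard errors from edgeR's quasi-likelihood fit. Dashed lines mark log2-fold changes of 1 and −1; *TAP2* at 2.38 and *RFXANK* at 3.05 are the genes that passed both thresholds.

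In the class II genes, pools of the same group differed by more than the group means did. None of the 6 class II chains, *CD74*, *HLA-DMA*, *HLA-DMB*, *HLA-DOA* and *HLA-DOB* was called, and the groups overlapped in all 11. *HLA-DRA* (ENSG00000204287, plus strand, chr6:32439878-32445046), which encodes the alpha chain of HLA-DR, was at 389 and 109 CPM in control pools 1 and 2, and at 498 CPM in sgMTSS1_1, 409 in sgMTSS1_2 and 150 in sgMTSS1_3. Its controls were 3.58-fold apart, and control pool 2 and sgMTSS1_3 were the low pools. The log2-fold change was 0.50 (standard error 0.60, edgeR adjusted p = 0.665), 1.70 without control pool 1 and −0.12 without control pool 2. *HLA-DRB1*, the beta chain partner, was at 496 and 206 against 254, 342 and 119 CPM (log2-fold change −0.56, standard error 0.49), so that here a control pool was highest. Reads of *HLA-DRB1* may be shared with its paralog *HLA-DRB5* and the pseudogene *HLA-DRB6*, and its count is uncertain. *CD74* (ENSG00000019582, minus strand, chr5:150401637-150412969), the invariant chain, was at 462 and 157 against 170, 264 and 99.8 CPM (−0.80, standard error 0.50, edgeR adjusted p = 0.379).

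The other chains had the same low pools. For HLA-DP, *HLA-DPA1* was at 162 and 36.1 CPM in control and at 96.7, 125 and 32.2 CPM in knockout pools, and *HLA-DPB1* at 61.4 and 19.2 against 66.4, 75.4 and 18.2 CPM. Their log2-fold changes were −0.23 (standard error 0.64) and 0.40 (standard error 0.62). For HLA-DQ, *HLA-DQA1* was at 9.31 and 3.85 against 14.6, 23.7 and 4.84 CPM, and *HLA-DQB1* at 13.7 and 5.03 against 29.0, 23.0 and 10.04 CPM. These were the class II genes with the largest log2-fold changes, 1.13 (standard error 0.66, edgeR adjusted p = 0.338) and 1.15 (standard error 0.55, edgeR adjusted p = 0.250). HLA-DM, which exchanges peptides on class II molecules, is encoded by *HLA-DMA* (35.99 and 9.77 against 37.8, 37.7 and 17.6 CPM) and *HLA-DMB* (13.7 and 12.1 against 26.3, 35.9 and 10.6 CPM). HLA-DO, which restrains HLA-DM, had low levels, with *HLA-DOA* at 4.03 and 1.18 against 2.19, 6.82 and 1.90 CPM and *HLA-DOB* at 4.65 and 0.592 against 2.97, 3.05 and 2.94 CPM. Log2-fold changes of these 4 genes lay between 0.19 and 0.91 and their adjusted p-values between 0.307 and 0.901 (edgeR).

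In all 11 genes control pool 1 was above control pool 2 and sgMTSS1_3 was the lowest knockout pool, an order found in 17.4% of all tested genes and chosen after its values were seen. Control pool 1 was at least 2 times control pool 2 in 10 of the 11 genes, against 15.6% of all tested genes. *HLA-DMB* was the exception, at 1.12 times. The 11 genes together summed to 1652 and 560 CPM in control pools 1 and 2 and to 1197, 1345 and 467 CPM in the knockout pools. Control pool 1 was thus 2.95 times control pool 2, and the sgMTSS1_1 and sgMTSS1_2 pools were 2.56 and 2.88 times the sgMTSS1_3 pool. With all pools, 8 of the 11 genes had a positive log2-fold change. Without control pool 1 all 11 were positive (0.19 to 2.30), and without control pool 2 only *HLA-DQA1*, *HLA-DQB1* and *HLA-DMB* were, with 8 negative (down to −1.35). The sign of 8 of the 11 genes thus depended on which control pool was left out.

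Upstream windows of 3 of these genes are shown for their Y cores; all lie on the minus strand, at chr6:32589849-32590048 for *HLA-DRB1*, chr6:32953098-32953297 for *HLA-DMA* and chr5:150412911-150413110 for *CD74*.
HLA-DRB1: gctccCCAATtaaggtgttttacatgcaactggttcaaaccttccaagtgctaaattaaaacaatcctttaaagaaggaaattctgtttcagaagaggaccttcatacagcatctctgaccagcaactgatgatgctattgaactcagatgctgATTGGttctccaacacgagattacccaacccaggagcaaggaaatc
HLA-DMA: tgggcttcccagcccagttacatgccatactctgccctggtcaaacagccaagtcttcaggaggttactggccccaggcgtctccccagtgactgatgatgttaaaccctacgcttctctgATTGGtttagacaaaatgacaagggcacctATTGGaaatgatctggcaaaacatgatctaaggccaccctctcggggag
CD74: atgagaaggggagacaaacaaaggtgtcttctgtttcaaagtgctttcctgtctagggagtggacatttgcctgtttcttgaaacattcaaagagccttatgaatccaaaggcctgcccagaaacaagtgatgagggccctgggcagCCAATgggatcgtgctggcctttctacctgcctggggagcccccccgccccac
Y cores start at −195 and −46 in *HLA-DRB1*, at −79 and −49 in *HLA-DMA*, and at −53 in *CD74*. None of the other 3 kinds of letters occurs in these windows. For the X box only the letters TGACG were searched, so this does not show that an X box is absent.

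**Figure D3:**
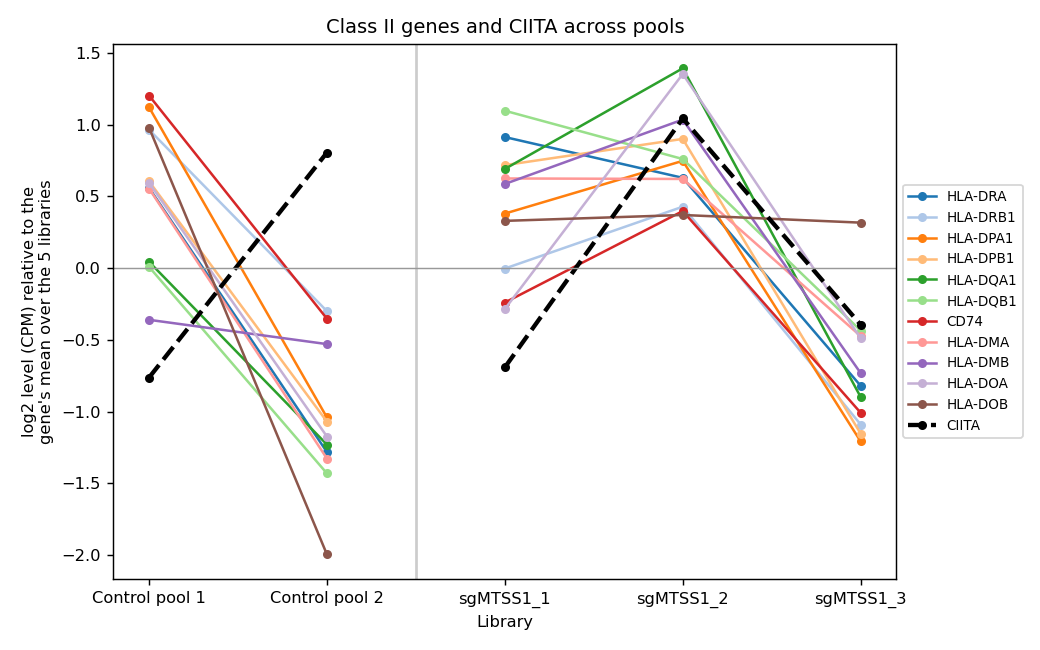
Levels of the 11 class II genes and of *CIITA* in the 5 pools, as log2 CPM relative to the gene's mean over the 5 libraries; control pools are left and knockout pools right of the vertical line. Each class II gene is higher in control pool 1 than in control pool 2 and lowest among knockout pools in sgMTSS1_3, whereas *CIITA* (dashed) is high in control pool 2 and sgMTSS1_2.

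Of the enzymes that act in endosomes, *CTSS* was not called and *IFI30* could not be tested. *CTSS* (cathepsin S), which degrades the invariant chain, was at 35.7 and 31.98 CPM in control and at 30.1, 28.5 and 26.0 CPM in knockout pools. All knockout pools were below both controls by a small margin, and the log2-fold change was −0.26 (standard error 0.29, edgeR adjusted p = 0.627). *IFI30*, which encodes the thiol reductase GILT, had 0, 6, 5, 7 and 4 counts and was not tested. All of its last 300 exonic bases are also exonic in ENSG00000268173 on the same strand. The part of this overlap in its counts was not tested.

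Among the transcription factors, *RFXANK* was called higher, the other RFX subunits were lower without being called, and neither coactivator was called. *RFXANK* (ENSG00000064490, plus strand, chr19:19192229-19201869) had 11 and 6 counts in control pools 1 and 2 and 265 in sgMTSS1_1, 87 in sgMTSS1_2 and 86 in sgMTSS1_3, or 3.41 and 1.78 against 34.2, 15.6 and 14.9 CPM. The knockout pools were all far above the controls, and sgMTSS1_1 was highest. The means were 2.59 ± 1.16 CPM (SD, n = 2) and 21.6 ± 10.9 CPM (SD, n = 3), a log2-fold change of 3.05 (standard error 0.57, edgeR adjusted p = 0.0209) and the largest of the list. Control pool 2, with 6 counts, was below the count filter, so *RFXANK* was kept for testing through the knockout pools. The direction held in all alternatives in which it was tested, but the call was lost without control pool 2 (2.68, edgeR adjusted p = 0.0518) and without sgMTSS1_1 (2.54, edgeR adjusted p = 0.0672), within a range of 4.7e-05 to 0.0672. The 3' end of *RFXANK* runs into *NR2C2AP*, a gene on the opposite strand whose exons cover 218 of the last 300 exonic bases. *NR2C2AP* had 13 and 9 counts in control and 267, 76 and 79 counts in knockout pools, close to those of *RFXANK*, and was called as well (log2-fold change 2.62, edgeR adjusted p = 0.0333). If strand was ignored in counting, the reads of these genes cannot be told apart. No window of *RFXANK* in the RefSeq table holds any of the letters searched for.

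The other subunits of the RFX complex, *RFX5* and *RFXAP*, were lower throughout the knockout pools, with no overlap between groups, but were not called. *RFX5* was at 12.4 and 11.5 CPM in control and at 4.77, 7.54 and 6.92 CPM in knockout pools. The spread within each group was small, and the log2-fold change was −0.91 (standard error 0.38, edgeR adjusted p = 0.191). *RFXAP* was at 20.2 and 24.3 against 12.0, 13.1 and 13.3 CPM, and its log2-fold change was −0.80 (standard error 0.31, edgeR adjusted p = 0.167). Neither gene changed direction in any alternative. As read counts, *RFX5* had 40 and 39 in control and 37, 42 and 40 in knockout libraries, so that its lower level came with deeper libraries and about the same number of reads. An exon on the opposite strand covers 255 of the last 300 exonic bases of *RFX5*. The ratio of *RFXANK* to *RFXAP* counts was 0.169 and 0.0732 in control and 2.85, 1.19 and 1.12 in knockout pools.

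The coactivator *CIITA* differed from the class II genes in the order of the pools. *CIITA* (ENSG00000179583, plus strand, chr16:10866222-10943021), which switches on class II genes, was at 72.9 and 216 CPM in control pools 1 and 2, and at 76.6 CPM in sgMTSS1_1, 255 in sgMTSS1_2 and 94.1 in sgMTSS1_3. Control pool 2 and sgMTSS1_2 were high and the other pools low, whereas the class II genes were low in control pool 2. The log2-fold change was −0.03 (standard error 0.58), 0.99 without control pool 2 and −0.75 without sgMTSS1_2. An unnamed same-strand gene, ENSG00000280153, covers 186 of the last 300 exonic bases of *CIITA*. *NLRC5*, the coactivator of class I genes, was at 7.14 and 6.22 against 4.77, 8.98 and 10.7 CPM (log2-fold change 0.28, standard error 0.46).

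**Figure D4:**
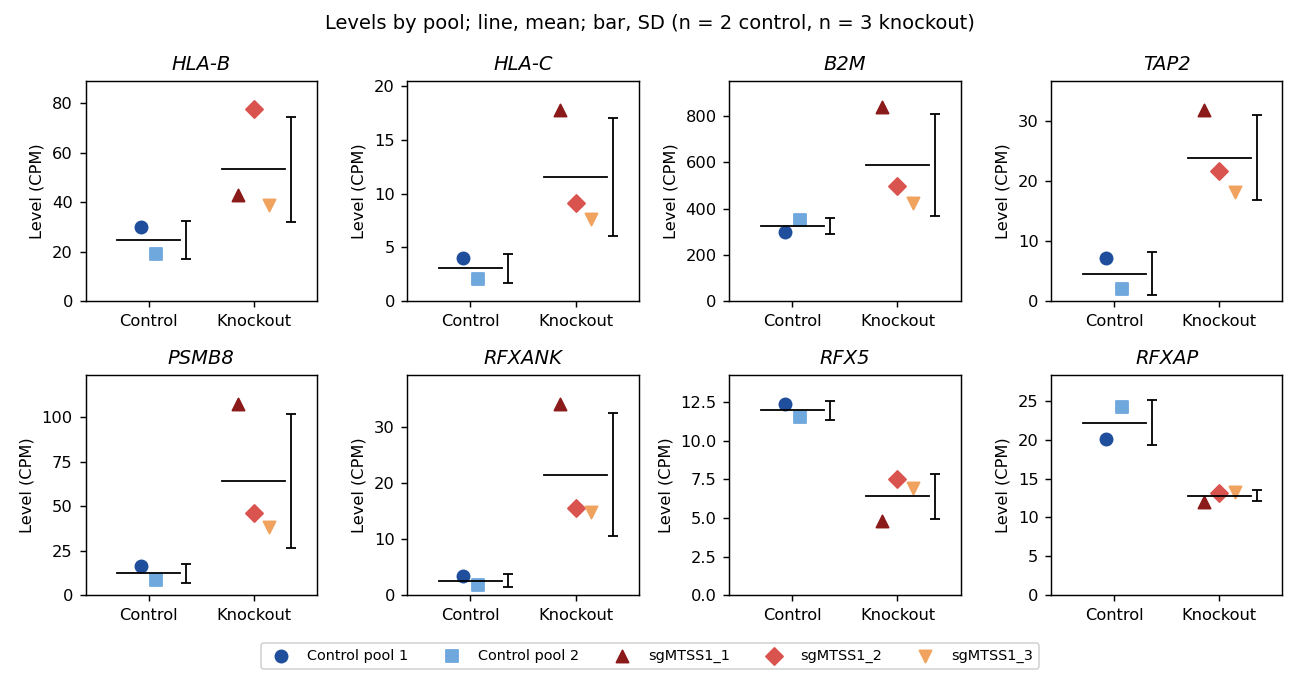
Levels in each pool, in CPM, of 8 genes whose groups do not overlap; points are pools, horizontal lines group means and bars SD (n = 2 control, n = 3 knockout). *HLA-B*, *HLA-C*, *B2M*, *TAP2*, *PSMB8* and *RFXANK* lie higher and *RFX5* and *RFXAP* lower in the knockout, and *TAP2*, *PSMB8* and *RFXANK* were called. *PSMB8* is not on the list, and *CALR*, *ERAP2* and *CTSS*, which also lie lower in every knockout pool, are not shown. Of the 28 tested genes of the list 5 lie above and 5 below, against 22.2% and 19.2% of all tested genes.

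To set these genes beside the rest of the pathway, 54 further genes in 7 lists were read from the same fit. A row was found for 53. Of the 46 that could be tested, *PSMB8* was the only gene called (background 5.18%), and none was called lower. In 6 genes every knockout pool lay above both controls (background 22.2%), in 9 below (background 19.2%), and in 31 the groups overlapped, with a median log2-fold change of −0.10. *PSMB8* (ENSG00000204264, minus strand, chr6:32840717-32844679), an inducible catalytic subunit of the immunoproteasome, lies next to *TAP2*. It had 52 and 29 counts in control and 833, 258 and 222 counts in knockout pools, or 16.1 and 8.59 against 107, 46.3 and 38.4 CPM. All knockout pools were above the controls, most of all sgMTSS1_1, and the log2-fold change was 2.37 (standard error 0.53, edgeR adjusted p = 0.0364). The call was lost without control pool 2 (2.01, edgeR adjusted p = 0.0927), sgMTSS1_1 (1.77, 0.0929) or sgMTSS1_2 (2.61, 0.0548), within a range of 7.75e-05 to 0.0929. *PSMB9*, another inducible subunit, was at 10.2 and 3.26 against 26.4, 10.8 and 12.6 CPM (log2-fold change 1.31, edgeR adjusted p = 0.209). *PSMB9* overlaps *PSMB8* and *TAP1* on the opposite strand, but no exon of another gene covers the last 300 exonic bases of *PSMB8* or *PSMB9*. The part of these overlaps in the counts was not tested. The lowest value among proteasome genes was that of the activator subunit *PSME3* (−0.22).

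Within interferon signalling, *IFNGR2*, a chain of the interferon gamma receptor, had the largest log2-fold change. It was at 14.9 and 5.03 CPM in control and at 36.4, 28.7 and 37.9 CPM in knockout pools. Its log2-fold change of 1.78 (standard error 0.46, edgeR adjusted p = 0.0539) fell just outside the threshold. DESeq2 called it (adjusted p = 0.00518, in a range of 0.00518 to 0.155). The kinase *JAK1* was lowest in that list (−0.69, edgeR adjusted p = 0.200), and *IRF8* was not analysed here. Among partners at the promoters, *NFYA*, an NF-Y subunit, was at 0.73 and *CREB1* at −0.37. For other peptide handling the extremes were *PDIA6*, a disulfide isomerase (0.19), and *UGGT1*, a folding sensor for glycoproteins (−0.58). Among genes of endosomal proteolysis and class II turnover, the protease *LGMN* was at 0.43, but at −0.28 without control pool 2, and *MARCHF1*, a ubiquitin ligase that removes class II molecules from the surface, was at −1.38 (edgeR adjusted p = 0.190). The NKG2D ligands *MICA* (0.58) and *MICB* (−0.74) were the extremes of the class I-like molecules, and *CD40* (1.34, edgeR adjusted p = 0.234) and *ICOSLG* (−0.68) those of the costimulatory molecules.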

How the data were processed

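RNA of 2 control and 3 *MTSS1* knockout pools of TF-1 clones was analysed. The authors prepared libraries with the QuantSeq 3' FWD kit, sequenced single ends, trimmed adapters with BBDuk, aligned to GRCh38 with HISAT2 2.1.0, removed reads mapped to several places with SAMtools 1.10, and deposited raw counts per Ensembl gene. The counting program, annotation release and use of strand are not given in the sources used here. All 5 columns were mapped by the pools' labels.

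These counts were fitted with edgeR 4.0.16 (R 4.3.3): filterByExpr (minimum count 10, 14391 of 27328 genes kept), TMM, and the quasi-likelihood test on condition alone with Benjamini-Hochberg adjustment over all tested genes. Standard errors were derived from the F statistic. On simulated counts for all 14391 tested genes with 200 changed 4-fold, 73.5% of the changed and 6 unchanged genes were called. The share called was not determined for the genes of the list. Alternatives were other scaling, other filters, DESeq2 1.42.0, limma-voom (limma 3.58.1), thinned counts, a replicate block, other thresholds, and each pool left out. Gene positions are from GENCODE release 44, promoters from RefSeq. Of the pathway lists, called genes and those with the largest and smallest fold change were named, and *PSMB9* was added after its values were seen. The genes and lists were chosen with earlier results of these data known, and no list was tested as a set. Levels in CPM were computed here from the deposited counts, and the depth of each library limits their precision.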

Additional observations from a re-analysis of the deposited data

How the results depend on the processing

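Of the genes of the list, 2 were called (*RFXANK*, *TAP2*). This became 0 with at least 10 counts in every library, where neither could be tested, 4 with the replicate block (adding *HLA-C* and *HLA-DQB1*), and 0 to 4 when a pool was left out (4 without control pool 1, with *CALR* and *TAPBP*; 0 without control pool 2 or sgMTSS1_1). Of the other pathway genes, 1 was called (*PSMB8*), which became 2 with no filter, at least 10 counts in every library, DESeq2, limma-voom, or an adjusted p under 0.1, 3 with the block (adding *CD40* and *IFNGR2*), and 0 to 2 with a pool left out (without control pool 2, *CTSD* was called in place of *PSMB8*). Without a control pool, the remaining control is assumed to vary like the other pools. Over all genes, 745 were called, against 1357 with DESeq2, 1374 with no filter, 1094 with the block, 1349 without control pool 1, and 111, 347 and 191 without the knockout pools in turn. The median log2-fold change of all genes, −0.03, moved to −0.17 with library size alone and to 0.11 with no filter. Library size alone turned *HLA-E* to −0.062, *PDIA3* to −0.11 and *CANX* to −0.12. The block turned *HLA-DPA1* to 0.50, *NLRC5* to −0.023 and *CIITA* to 0.15, and *CIITA* was at 0.12 with no filter, 0.014 with at least 10 counts in every library, and 0.025 after thinning.

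With a pool left out, the log2-fold change crossed 0 for *HLA-E* (−0.0087 to 0.22), *TAPBP* (−1.24 to 0.65), *ERAP1* (−0.83 to 0.75), *PDIA3* (−0.065 to 0.17), *CANX* (−0.029 to 0.12), *HLA-DRA* (−0.12 to 1.70), *HLA-DRB1* (−1.03 to 0.21), *HLA-DPA1* (−0.91 to 1.23), *HLA-DPB1* (−0.18 to 1.48), *CD74* (−1.35 to 0.19), *HLA-DMA* (−0.19 to 1.68), *HLA-DOA* (−0.14 to 1.59), *HLA-DOB* (−0.61 to 2.30), *CIITA* (−0.75 to 0.99) and *LGMN* (−0.28 to 1.97). The causes were not tested. Pool numbers 1 and 2 occur in both groups, but nothing says that they mark shared handling. Across 14391 genes, the difference between control pools 1 and 2 had a Pearson's r of 0.178 with that between sgMTSS1_1 and sgMTSS1_2, and with 2 shared numbers the pools were taken to share only a number. With 2 control pools of the lowest depth, levels of a few CPM rest on few reads in that group.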

Other observations

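Some values were singled out after they had been seen and carry no test. The ratio of *HLA-DRA* to *CD74* counts was 0.843 in control pool 1, 0.691 in control pool 2, 2.93 in sgMTSS1_1, 1.55 in sgMTSS1_2 and 1.50 in sgMTSS1_3, although the groups overlapped in the level of either gene. The ratio of *HLA-DRA* to *HLA-DRB1* counts, 0.785 and 0.527 against 1.96, 1.20 and 1.25, did not overlap either. *HLA-DPB1* to *HLA-DPA1* stood at 0.380 and 0.533 against 0.687, 0.604 and 0.565. *HLA-DQB1* to *HLA-DQA1*, at 1.47 and 1.31 against 1.99, 0.970 and 2.07, overlapped. Reads that *HLA-DRB1* may share with *HLA-DRB5* and *HLA-DRB6* touch the ratio of *HLA-DRA* to *HLA-DRB1*, and their part was not tested.

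The level of *MTSS1* itself was 203 and 87.4 CPM in control and 103, 138 and 49.7 CPM in knockout pools. It was thus higher in control pool 1 than in control pool 2 and lowest among the knockout pools in sgMTSS1_3, the order held by all 11 class II genes and by 17.4% of all tested genes.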
